A study of Homo sapiens with 10 samples.

Results

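Glypicans and syndecans are the main families of core proteins that carry heparan sulfate on the cell surface. The 10 human genes of both families, GPC1 to GPC6 and SDC1 to SDC4, were taken by symbol from the 22848 symbols present in all 4 deposited tables, and all 10 were found. The tables compare 4 derivatives with WA09 human embryonic stem cells (hESC), an established line. In definitive endoderm (DE) the medium held 100 ng/mL activin A and 8 ng/mL FGF over 4 days, and 25 ng/mL Wnt-3a during day 1. For splanchnic mesoderm (MESO), also 4 days, BMP-4 (100 ng/mL) and Wnt-3a (25 ng/mL throughout) came on top of everything hESC received. Neural progenitors (NPC) had 6 days in 10 ng/mL heregulin and 200 ng/mL IGF-I, with activin and BMP receptors blocked by SB431542 and by 500 nM LDN. Pre-neural crest cells (NCSC), also at 6 days, had 8 ng/mL FGF besides those 2 proteins, with SB431542 and the GSK3 inhibitor BIO. The hESC medium, used for 4 days, had activin A and heregulin, both at 10 ng/mL, with 200 ng/mL IGF-I and 8 ng/mL FGF. Cells were plated on Matrigel, 90000 per square centimetre for NPC and NCSC and 50000 for DE, MESO and hESC. There were 2 libraries per cell type, and separate cultures are not stated.

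Glypicans are held to the outer face of the membrane by a lipid (GPI) anchor, while syndecans span the membrane and have a short cytoplasmic tail that binds scaffold and signalling proteins. The heparan sulfate chains on both bind FGF, WNT, BMP and Hedgehog proteins, present them to receptors or hold them back, and are needed for FGF receptors to signal efficiently. Loss of GPC3 causes the Simpson-Golabi-Behmel overgrowth syndrome in humans, and FGF, BMP, WNT and activin are the agents by which these cultures were steered.

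Promoter sequences from RefSeq (GRCh38.p14) were matched for 8 of the 10 members. Shown here are the 250 bases before the annotated start of 4 genes on which the results turn. These are GPC4, which fell in 3 derivatives, SDC3, which rose in the same 3, SDC4, which was called in both directions, and GPC6, whose window has the fewest CG dinucleotides of the members matched. They read 5′ to 3′ on the gene's strand, and capitals mark the GC box (GGGCGG or, on the other strand, CCGCCC), a motif bound by SP1-type factors.
GPC4 (chrX:133415490-133415739, minus strand): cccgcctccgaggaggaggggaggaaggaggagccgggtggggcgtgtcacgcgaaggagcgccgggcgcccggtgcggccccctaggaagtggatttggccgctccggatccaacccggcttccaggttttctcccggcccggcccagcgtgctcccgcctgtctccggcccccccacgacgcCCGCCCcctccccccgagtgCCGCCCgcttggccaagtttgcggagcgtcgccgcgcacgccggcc
SDC3 (chr1:30908759-30909008, minus strand): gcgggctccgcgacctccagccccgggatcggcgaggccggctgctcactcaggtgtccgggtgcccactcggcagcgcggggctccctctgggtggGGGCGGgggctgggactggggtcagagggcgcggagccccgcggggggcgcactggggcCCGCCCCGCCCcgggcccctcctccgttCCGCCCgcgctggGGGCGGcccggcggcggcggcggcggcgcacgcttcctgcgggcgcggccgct
SDC4 (chr20:45348425-45348674, minus strand): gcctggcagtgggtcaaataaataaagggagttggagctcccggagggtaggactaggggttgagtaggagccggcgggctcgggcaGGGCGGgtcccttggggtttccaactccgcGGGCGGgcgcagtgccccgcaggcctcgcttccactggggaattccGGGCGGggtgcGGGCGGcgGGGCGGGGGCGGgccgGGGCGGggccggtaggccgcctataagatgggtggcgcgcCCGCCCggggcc
GPC6 (chr13:93226557-93226806, plus strand): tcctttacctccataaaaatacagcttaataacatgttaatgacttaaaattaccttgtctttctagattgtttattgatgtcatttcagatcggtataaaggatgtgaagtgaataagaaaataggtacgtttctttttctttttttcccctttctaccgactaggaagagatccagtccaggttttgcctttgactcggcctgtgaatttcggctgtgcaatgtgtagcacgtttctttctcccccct
SDC4 has 8 GC boxes in this window, counting overlapping ones, SDC3 has 5, GPC4 has 2 and GPC6 has none. A GC box occurs in 42.7% of 34961 promoter windows of this length. The CG dinucleotide occurs 37 times in the SDC3 window, 32 times in that of GPC4, 26 times in that of SDC4 and 6 times in that of GPC6, against a median of 11 over all windows. Of 3 other motifs searched on both strands, CACCTG, an E-box, occurs in SDC3 alone of these 4 (17.5% of all windows hold it), and TATAAA in GPC6 alone (10.7% of all windows). CCAAT, which 32% of all windows hold, occurs in none of the 4. A short stretch of bases after the annotated GPC6 start was not found in the GENCODE transcripts of the gene. Whether those transcripts start close by was not tested.

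The authors deposited 1 level per cell type and table, in FPKM (sequenced fragments corrected for transcript length and library size), so replicates were already combined and no spread between libraries can be given. Read depth is unknown. Rose and fell refer to the authors' q-value below 0.05 in their deposited table for that derivative, and the lowest p-value in those tables is 5e-05, so that 0.000868 in MESO, 0.000323 in NPC and 0.000455 in NCSC are the smallest q they hold. Changes are differences of log2(FPKM + 1), derivative minus hESC of the same table. All 4 comparisons share the hESC libraries, and a common scale of the tables is not stated, so levels of different derivatives are set side by side without a test. In these bulk samples, fewer cells of a type and less RNA per cell cannot be told apart.

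The hESC levels of 8 members agreed between tables within 1.74-fold, the widest being GPC6 (3.63 to 6.31 FPKM). GPC5 was listed at 0 in each. GPC3 was the exception: hESC stood at 36.1, 49.6 and 57.3 FPKM in the DE, MESO and NPC tables and at 246.6 in the NCSC table. That table lists GPC3 on 3 rows with the same coordinates. The row with the highest mean, used here by rule, gives 319 FPKM in NCSC and 246.6 in hESC. A second row gives 15.7 FPKM in NCSC and 53.8 in hESC, and the third is at 0 in both. The hESC value of the second row lies within the range of the other tables, so both rows are given below. Several rows per symbol are common there: 2184 symbols in NCSC, against 320 to 328 in the others. GPC2 was merged with its neighbour GAL3ST4, a sulfotransferase gene, into 1 locus in the DE, MESO and NCSC tables, and its levels there include that gene's reads. The NPC table lists GPC2 alone, over 99767228 to 99869855 on chromosome 7 (hg19). The merged locus ends at 99774990 in the DE table and 99775061 in the MESO table, but at 99869855 in the NCSC table. The NPC and NCSC loci thus reach further on that side, and whether their levels include reads of other genes was not tested.

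Markers were checked against the labels. Of 7 markers each, 5 endoderm markers rose in DE, 7 mesoderm markers in MESO and 6 neural markers in NPC. GATA4 and OTX2, of the mesoderm and neural lists, also rose in DE. Of 7 hESC markers 6 fell in MESO, 5 in NPC, where SOX2 rose, and 4 in NCSC. None was called lower in DE, although they summed to 876 FPKM there, against 2131 in hESC. POU5F1 stood at 29.7 FPKM in DE, against 232 in hESC, without a call, and TDGF1 at 245, against 261. In NCSC only 3 of 7 crest and border markers rose (PAX3, SNAI2 and MSX1), FOXD3 fell to a listed 0, and TFAP2A and PAX7 stood at 0.0463 and 0.0512 FPKM. All 7 trophoblast and amnion markers also rose in MESO, where they summed to 623 FPKM, against 20.2 in hESC, and 5 of 7 fibroblast markers rose there (1332 against 158); none of either list was at 0, and ISL1 is in both the mesoderm and the trophoblast list. Of the 7 crest and border markers 4 rose in MESO and 1 fell (170 against 13.7), and of 7 endothelial and blood markers 3 rose, KDR, TEK and GATA2 (184 against 15.5), while PECAM1 stood at 0.0701 FPKM and CDH5 at 0.833. In NCSC 3 of 7 fibroblast markers rose and 1 fell (760 against 157), and LUM and COL3A1 were below 0.1 FPKM there.

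**Figure D1:**
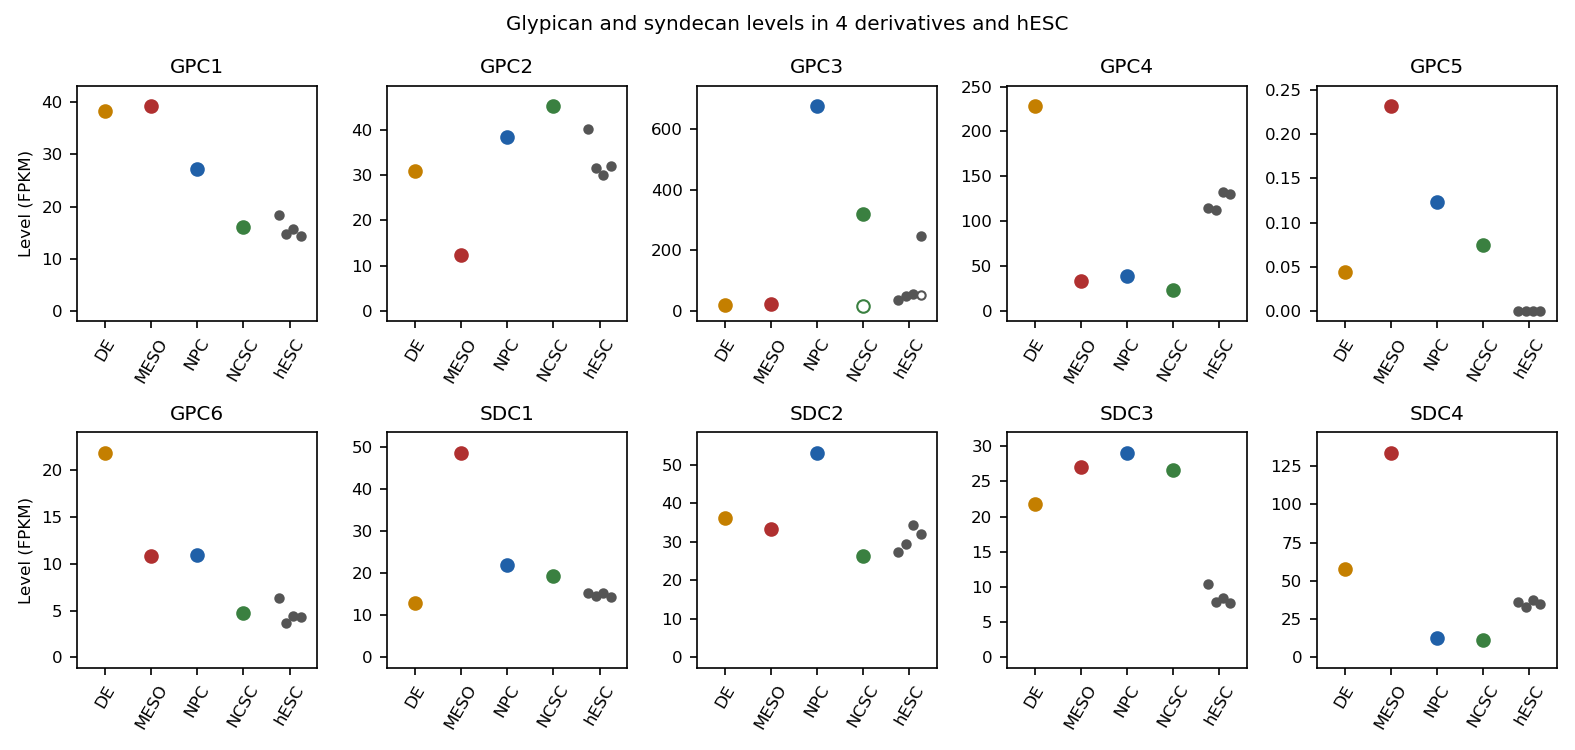
Level in FPKM of each of the 10 members (1 panel each, linear axes from 0) in the 4 derivatives, with the 4 hESC columns, 1 per table, at the right in grey. Open circles in the GPC3 panel mark the second GPC3 row of the NCSC table; GPC3 stands out in NPC at 674 FPKM, and GPC4 is highest in DE at 228.

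GPC4 was the most abundant glypican in hESC in the DE, MESO and NPC tables and fell in 3 of the 4 derivatives. GPC4 binds FGF and WNT ligands in the embryo. It stood at 33.8 FPKM in MESO, against 113 in hESC, a change of -1.71 (q = 0.000868 in the authors' deposited table). NPC had 39.0 FPKM, against 132 in hESC (change -1.74, q = 0.000323 in the authors' deposited table), and NCSC had 23.7, against 130 (change -2.41, q = 0.000455 in the authors' deposited table). The linear fold was thus 3.34-fold, 3.39-fold and 5.48-fold lower. DE went the other way in level, with 228 FPKM against 115 in hESC, without a call (change 0.98; the authors' deposited table gives q = 0.999). The locus spans 132435063 to 132549205 on chromosome X in the NPC table (hg19).

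GPC3 lies next to GPC4 on the X chromosome, and the NPC table leaves 120569 bases between them (GPC3 at 132669775 to 133119673, hg19). It encodes a glypican best known for restraining growth and Hedgehog signalling. In NPC it rose to 674 FPKM, against 57.3 in hESC, which is 11.8-fold (change 3.53, q = 0.000323 in the authors' deposited table). Against the hESC mean of the other 3 tables the NPC change was 2.59, with the highest NCSC row in that mean. With the second row in that mean, an alternative chosen after seeing the data, the NPC change was 3.83. In MESO the level was 22.6 FPKM, against 49.6 in hESC, just outside the threshold (change -1.10, q = 0.0535 in the authors' deposited table). DE had 19.2 FPKM, against 36.1 in hESC (change -0.88, q = 0.999 in the authors' deposited table). Against that mean with the highest NCSC row, the changes were -2.27 in MESO and -2.56 in DE. In NCSC the direction depended on the row: the row with the highest mean was 319 FPKM in NCSC and 246.6 in hESC and did not pass (change 0.37, q = 0.532), while the second row fell to 15.7 FPKM, against 53.8 in hESC (change -1.72, q = 0.0148), both from the authors' deposited table. The highest NCSC row against the hESC mean of the DE, MESO and NPC tables gave a change of 2.72. This sets that row against hESC levels near that of the second row. Neither row has such a rise against its own hESC value. In NPC the neighbours thus moved in opposite directions, GPC3 up and GPC4 down.

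GPC6, the closest relative of GPC4 in sequence, was low in hESC and rose in MESO and NPC. It reached 10.8 FPKM in MESO, against 3.63 in hESC (change 1.35, q = 0.0229 in the authors' deposited table), and 10.9 in NPC, against 4.43 (change 1.13, q = 0.000607 in the authors' deposited table). Its highest level was 21.8 FPKM in DE, against 6.31 in hESC, a change of 1.64 without a call (q = 0.252 in the authors' deposited table). NCSC had 4.70 FPKM and hESC 4.30 (q = 0.807 in the authors' deposited table). GPC6 and GPC4 thus carried changes of opposite sign in MESO and in NPC. The GPC6 call in MESO ended when the authors' deposited statistic was turned into normal p-values (adjusted p = 0.171).

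GPC1, which binds FGF and is abundant in the nervous system, rose in the same derivatives as GPC6. Its level was 39.2 FPKM in MESO, against 14.8 in hESC (change 1.35, q = 0.00635 in the authors' deposited table), and 27.2 in NPC, against 15.7 (change 0.76, q = 0.0242 in the authors' deposited table). DE had 38.3 FPKM, against 18.4 in hESC, and NCSC had 16.0, against 14.4, with q of 0.999 and 0.715 in the authors' deposited tables. Both GPC1 calls ended with normal p-values from the authors' deposited statistic (adjusted p = 0.126 in MESO and 0.155 in NPC). The DE and MESO levels of GPC1 were close together, although of these 2 comparisons only that of MESO passed. GPC2, a glypican of developing neurons, fell in MESO to 12.4 FPKM, against 31.6 in hESC (change -1.28, q = 0.0318 in the authors' deposited table). It did not pass in DE (31.0 FPKM, hESC 40.2), NPC (38.4, hESC 30.1) or NCSC (45.2, hESC 32.1). Because of the merged locus, the MESO fall cannot be assigned to GPC2 rather than to GAL3ST4, and it too ended with normal p-values from the authors' deposited statistic (adjusted p = 0.250). GPC5, which lies 359589 bases from GPC6 on chromosome 13 in the NPC table (hg19), was near absent: 0.0445 FPKM in DE, 0.231 in MESO, 0.124 in NPC and 0.0741 in NCSC, and listed at 0 in hESC. Its deposited p of 1 and statistic of 0 were taken to mean that it was not tested. The antisense genes GPC5-AS1 and GPC6-AS2 were listed at 0 in both cell types of every table.

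SDC4 was the most abundant syndecan in hESC in every table and was called in both directions, as was GPC3 where its second NCSC row is used. It is the syndecan of focal adhesions, where it works with integrins and protein kinase C alpha. SDC4 rose in MESO to 133 FPKM, against 32.7 in hESC, which is 4.09-fold (change 2.0, q = 0.000868 in the authors' deposited table). It fell in NPC to 12.8 FPKM, against 37.2 in hESC (change -1.47, q = 0.000323 in the authors' deposited table), and in NCSC to 11.7, against 34.7 (change -1.49, q = 0.000455 in the authors' deposited table). The falls are 2.91-fold and 2.97-fold. DE lay at 58.0 FPKM, against 36.1 in hESC, without a call (the authors' deposited table gives q = 0.999).

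SDC1, the syndecan typical of epithelia, rose in MESO to 48.5 FPKM, against 14.5 in hESC (change 1.68, q = 0.00218 in the authors' deposited table). With normal p-values from the authors' deposited statistic that call ended (adjusted p = 0.0624). It passed in no other derivative: levels were 12.9 FPKM in DE (hESC 15.3), 21.9 in NPC (hESC 15.4) and 19.3 in NCSC (hESC 14.4). The rises of SDC1 and SDC4 in MESO stood beside those of the trophoblast, amnion, fibroblast, crest and endothelial markers given above, whose part in the result was not tested.

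SDC3, a syndecan of the nervous system and of muscle progenitors, was the lowest syndecan in hESC in every table and rose by nearly the same factor in 3 derivatives. MESO had 27.0 FPKM, against 7.80 in hESC, which is 3.46-fold (q = 0.000868 in the authors' deposited table). NPC had 29.02 FPKM, against 8.40 (3.45-fold, q = 0.000323 in the authors' deposited table), and NCSC had 26.6, against 7.71 (3.45-fold, q = 0.000455 in the authors' deposited table). The changes were 1.67, 1.68 and 1.67. DE had 21.8 FPKM, against 10.4 in hESC, a change of 1.0 without a call (the authors' deposited table gives q = 0.999). SDC3 was the only member called higher in NCSC. SDC2, a syndecan of mesenchymal cells on chromosome 8, passed in no derivative. Its levels were 36.2 FPKM in DE (hESC 27.3), 33.5 in MESO (hESC 29.5), 53.1 in NPC (hESC 34.3, q = 0.0607 in the authors' deposited table) and 26.3 in NCSC (hESC 32.0). With 1 value per cell type, a smaller change of SDC2 cannot be told from the spread between libraries.

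**Figure D2:**
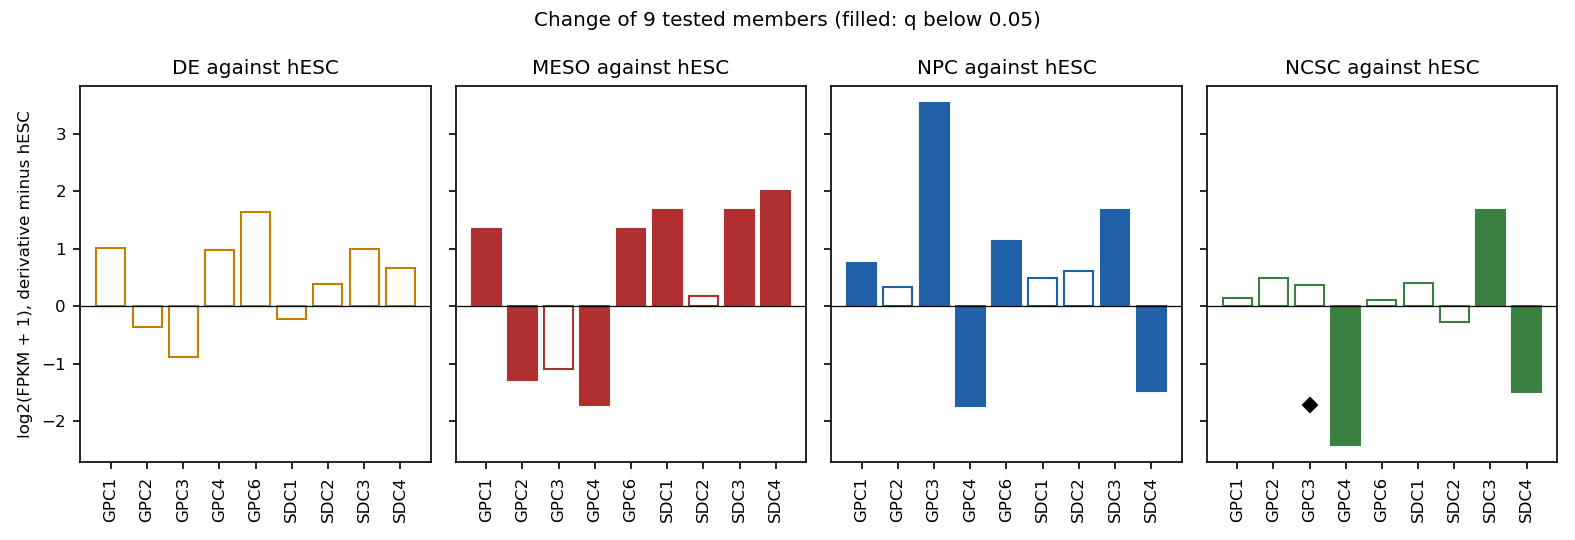
Change of the 9 tested members, as log2(FPKM + 1) of the derivative minus hESC, in the 4 comparisons; filled bars have the authors' q below 0.05, and the black diamond marks the second GPC3 row of the NCSC table (-1.72). SDC4 points up in MESO and down in NPC and NCSC, and GPC3 in NPC is the tallest bar at 3.53.

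Of the 9 members the authors tested in each comparison, none passed in DE, where 0.427% of all 14764 loci tested passed (0.406% higher and 0.0203% lower). By the deposited unadjusted p 1 of the 9, GPC6, was below 0.05 there, and the share of all loci below it was not computed. None of the 9 passed when the deposited statistic was turned into normal p-values, by which 1.23% of all loci passed. In MESO 5 members rose and 2 fell, against 14.4% of all loci passing (9.06% higher and 5.37% lower). With those normal p-values the MESO count was 3 members, SDC3 and SDC4 higher and GPC4 lower, against 7.93% of all loci. In NPC 4 rose and 2 fell, against 36.8% (12.0% higher and 24.9% lower). In NCSC 1 rose and 2 fell, against 30.0% of all loci (10.2% higher and 19.8% lower), and the members' 3 of 9 is near that background. With normal p-values the counts were 5 in NPC and 3 in NCSC, against 22.5% and 16.1% of all loci. The median change of the 9 was 0.67 in DE, 1.35 in MESO, 0.62 in NPC and 0.14 in NCSC. Over all tested loci that reached 1 FPKM in the derivative or in hESC, the medians were 0.05, 0.07, -0.27 and -0.23. All 9 members were above 1 FPKM in hESC as well, so none entered by being high in a derivative alone.

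The make-up of each family differed between cell types, as read from summed FPKM. In the MESO table glypicans summed to 119 FPKM in MESO, against 213 in hESC, while syndecans summed to 242, against 84.4. GPC4 held 28.4% of the glypican sum in MESO, against 53.1% in hESC, and GPC1 led there with 32.9%, against 6.94%. SDC4 held 55.0% of the syndecan sum in MESO and 38.7% in hESC. In MESO the syndecan sum thus exceeded the glypican sum, whereas hESC had the reverse order in every table.

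In NPC the glypicans summed to 789 FPKM, against 240 in hESC, and GPC3 alone held 85.4% of it, against 23.9% in hESC. The other 5 glypicans were each below 5% in NPC. Syndecans summed to 117 FPKM in NPC and 95.3 in hESC, with SDC2 first at 45.5% in NPC, against 36.0% in hESC. SDC4, first in hESC, was last of the 4 in NPC, with 11.0%, and in NCSC, with 13.9%. The leading member of each family was the same in DE as in hESC. GPC4 held 67.4% of the glypican sum in DE (338 FPKM), against 53.3% in hESC (216 FPKM), and SDC4 held 45.0% of the syndecan sum in DE (129 FPKM), against 40.5% in hESC (89.1 FPKM).

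For NCSC the glypican sum depended on the GPC3 row. It was 409 FPKM in NCSC and 428 in hESC with the highest row, of which GPC3 made up 78.1% and 57.7%. With the second row it was 105 in NCSC and 235 in hESC. Then the wide locus that holds GPC2 and its merged neighbour led in NCSC at 42.9%, against 13.7% in hESC. Syndecans summed to 83.9 FPKM in NCSC and 88.9 in hESC, with SDC3 at 31.7% in NCSC, against 8.67% in hESC, just ahead of SDC2 at 31.3%.

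**Figure D3:**
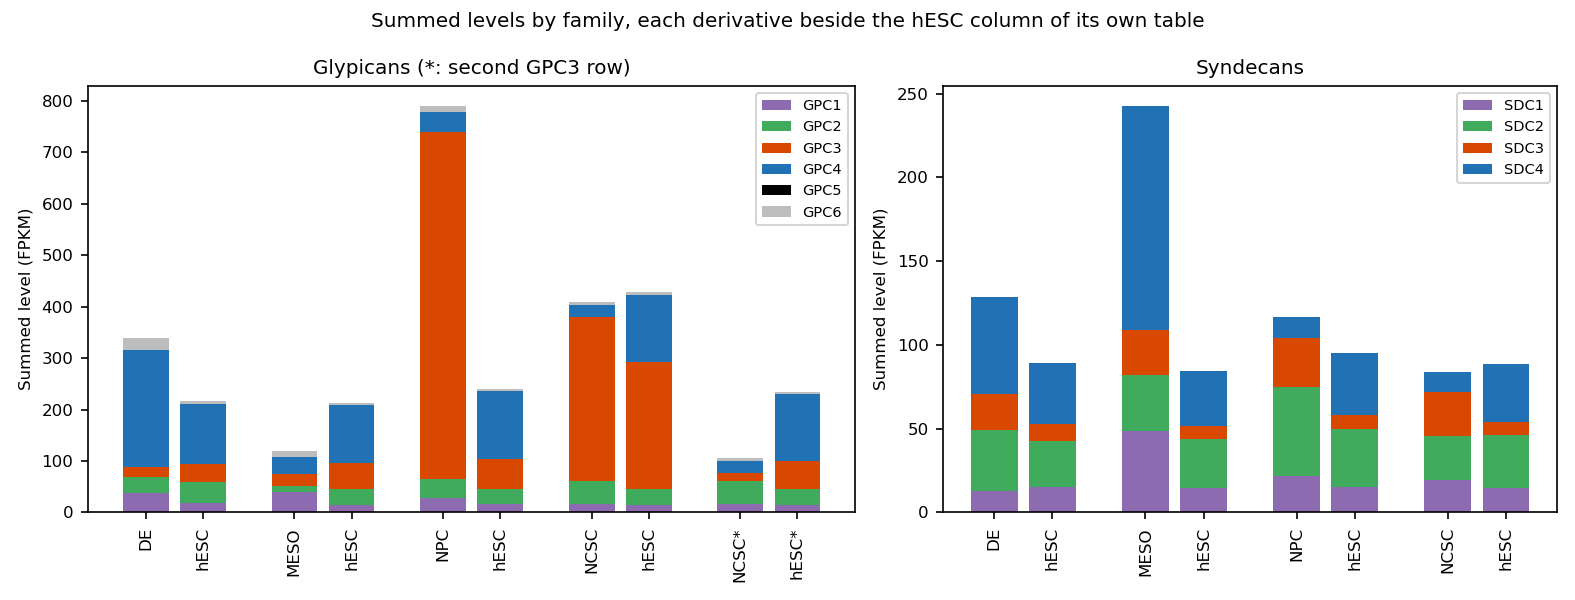
Summed FPKM of the 6 glypicans and the 4 syndecans, stacked by gene, in each derivative beside the hESC column of its own table; the bars with an asterisk use the second GPC3 row of the NCSC table. GPC3 fills most of the NPC glypican bar (85.4%), and the MESO syndecan bar (242 FPKM) is the tallest of its panel.

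The chains on these core proteins are built and trimmed by enzymes that were listed, together with shedding enzymes, partners and other proteoglycans, as 80 genes in 9 lists, of which 79 were found in each table. In DE none of the 71 tested passed. In MESO 19 of 75 tested rose and 8 fell, in NPC 15 of 73 rose and 21 fell, and in NCSC 12 of 72 rose and 15 fell. These counts, and those of each list below, are to be read against the shares of all tested loci. In MESO 9.06% of all loci rose and 5.37% fell. In NPC 12.0% rose and 24.9% fell, and in NCSC 10.2% rose and 19.8% fell.

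Linker enzymes start the chain on the core protein. None of 6 tested passed in MESO, where 14.4% of all loci passed. In NPC, where 36.8% passed, 1 of 6 fell (XYLT2, a xylosyltransferase, 8.67 FPKM against 19.6 in hESC). In NCSC, where 30.0% passed, 1 of 6 fell (XYLT1, 1.75 against 4.14). The counts were not tested against these shares. Of 5 polymerisation genes EXT1, a subunit of the chain polymerase, rose in MESO to 46.9 FPKM, against 13.7 in hESC, and fell in NCSC to 8.24, against 15.4, where EXTL1 rose to 1.97, against 0.744. None of these 5 passed in NPC.

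Sulfation decides which ligands a chain binds. Among 16 sulfotransferase and epimerase genes, 3 of 14 tested rose in MESO and none fell, all of them 3-O-sulfotransferases: HS3ST1 (4.22 FPKM against 0.226 in hESC), HS3ST3B1 (15.7 against 3.69) and HS3ST3A1 (13.6 against 3.64). In NPC 3 of 13 tested rose and 3 fell. HS6ST2, a 6-O-sulfotransferase, rose to 35.4 FPKM in NPC, against 2.64 in hESC (change 3.32), HS3ST3B1 to 14.7, against 4.03, and HS3ST5 fell to 0.226, against 2.03. In NCSC 2 of 13 rose and 3 fell, with HS6ST2 at 8.52, against 2.49, HS3ST1 at 4.39, against 0.235, and HS3ST3A1 at 1.06, against 3.59. NDST1, counted among the 3 that fell, has 2 rows in the NCSC table. The median change of this list was 0.22 in DE, 0.48 in MESO, 0.15 in NPC and 0.13 in NCSC, beside 0.04, 0.06, -0.25 and -0.22 for all tested loci.

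All 4 extracellular remodelling enzymes passed in NPC, where 36.8% of all loci passed. SULF1, an endosulfatase that removes 6-O-sulfate from finished chains, rose to 56.9 FPKM in NPC, against 2.39 in hESC (change 4.09). HPSE2, a relative of heparanase, rose to 5.68 FPKM, against 0.0646, while the heparanase HPSE fell to 0.126, against 1.42. SULF2 rose in NPC (11.9 against 5.05) and in NCSC (17.9 against 4.71). SULF1 also rose in MESO (19.0 against 2.24). It was not called in NCSC, where that symbol has 10 rows. In NPC, HS6ST2, which adds 6-O-sulfate, and SULF1, which removes it, were thus both called higher.

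Enzymes that release core proteins and the partners of syndecans are further parts of the system. NOTUM, a lipase that acts on WNT proteins and was first described as a releaser of glypicans, rose in MESO to 27.4 FPKM, against 2.39 in hESC (change 3.07). FURIN, a convertase that cleaves glypicans, rose there to 115, against 13.9. GDPD2, one of the enzymes that cut GPI anchors, fell there to 0.131 FPKM, against 4.00, while its relative GDPD5 rose in NPC to 11.5, against 1.66. Of 11 release genes 3 rose and 1 fell in MESO, 3 rose and 4 fell in NPC, and 3 rose and 2 fell in NCSC. MMP14, counted among those that rose in MESO, was likewise on a locus merged with another gene there. Of the syndecan partners, ITGB1, the beta-1 integrin, rose in MESO to 426 FPKM, against 125 in hESC, and fell in NPC to 66.7, against 151; SDCBP, syntenin, which binds the syndecan tail, rose in MESO to 107, against 48.4. In NPC 5 of 9 partners tested fell and 2 rose, where 24.9% of all loci fell and 12.0% rose. SDCBP2, counted among the 5, was on a merged locus, so its fall cannot be assigned to that gene alone. ITGB5 fell in NCSC to 15.1 FPKM, against 56.0. ITGB1, named here after its values were seen, also fell in NCSC, to 77.0 FPKM, against 147. PRKCA, protein kinase C alpha, fell in NPC to 0.945 FPKM, against 2.76, and rose in NCSC to 6.37, against 2.86. TIAM1, an exchange factor for the GTPase RAC1, rose in NPC to 14.6, against 7.22, and in NCSC to 18.2, against 6.63. Where SDC4 fell, its listed partners were thus called in both directions.

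**Figure D4:**
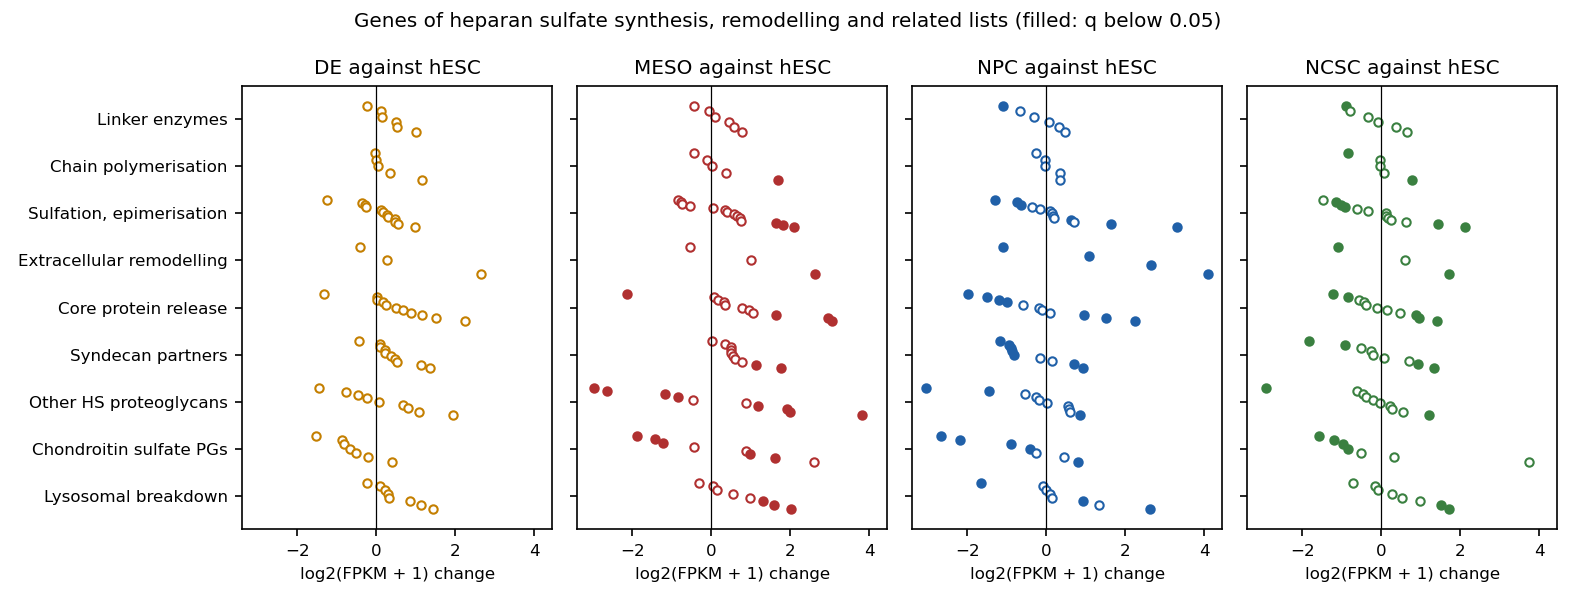
Change, as log2(FPKM + 1) of the derivative minus hESC, of each tested gene in the 9 lists (rows) in the 4 comparisons (panels); filled points have the authors' q below 0.05. No point is filled in DE, and the 4 remodelling genes are all filled in NPC, with SULF1 at 4.09.

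The genes whose 4 changes were most like those of a member, by Euclidean distance over the 4 comparisons among 13927 genes, are given as a description; the comparisons share their hESC libraries. For SDC4 these were CCDC3 (distance 0.41) and GATA5 (0.44). For GPC4 they were GPR64 (0.49) and FOXA3 (0.55), and for SDC3 MLLT11 (0.22) and ANGPTL2 (0.24). GPC3 lay nearest to DPYSL5 (0.55) and GPR50 (0.75) with the highest NCSC row, and to ZNF385B (0.75) and IRS4 (1.37) with the second. The nearest genes were CCDC57 and ATP11A for GPC1 (both 0.28), HOMEZ (0.45) and SERINC1 (0.49) for GPC6, DLGAP4 (0.29) and DGKD (0.32) for SDC1, and DTNB (0.22) and CACNA1G (0.29) for GPC2. Genes were sought for these 8 members, which were called in at least 1 table, and not for SDC2 or GPC5. Loci merged in any table and symbols below 1 FPKM in every cell type were left out of the 13927 genes. GPC2 and GPC5 could therefore not appear among the nearest genes. Of the other members, none was among the 2 nearest genes of any of the 8.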

How the data were processed

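Poly-A enriched RNA of 5 cell types was sequenced in 10 libraries, 2 each, as the labels state. TopHat2 2.0.13, Cufflinks 2.2.1, Subread 1.5.2, featureCounts and hg19 appear in the submitters' processing notes with no roles. The authors deposited 4 tables with FPKM per cell type, and a signed test score, p-value and q-value against hESC, per the file headers. The 2 libraries of a cell type are combined in them, which leaves no spread to test against, and read depth is unknown. Scaling between tables is not given in the sources used here.

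Rows on chromosomes 1 to 22 and X were kept (1314 to 1356 rows left out per table), symbols were split at commas, and each symbol kept its row of highest mean FPKM. The pseudocount was 1. Where the deposited score was 0 and the p-value 1, a locus counted as not tested; the sign of a call is that of the score, or of the FPKM difference where no finite score is given. For the 36 tested member rows, the sign of the FPKM ratio and of the score did not differ, and the ratio divided by the score lay between 0.878 and 1.52 times the table's median over loci with a mean FPKM of at least 20. The adjustment code was tested on simulated data. Python 3.11.15, pandas 2.3.3 and scipy 1.17.1 were used.

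The members and gene lists were chosen with earlier results of these data known. All members are named. Of each list up to 3 called genes with the largest change per table could be named, and not all are printed. Named beyond these were NDST1, ITGB1 and SULF1 in NCSC, SULF2 and SDCBP2 in NPC, and MMP14 in MESO. Alternatives were other thresholds, adjustments, pseudocounts, scalings, hESC columns and rows.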

Additional observations from a re-analysis of the deposited data

Results flagged for a closer look

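SDC4 was called in opposite directions in different derivatives, each against the same hESC libraries. The log2(FPKM + 1) change was 2.0 in MESO, -1.47 in NPC and -1.49 in NCSC. The difference between derivatives was not tested.

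GPC3 was called higher in NPC, with a change of 3.53. The second GPC3 row of the NCSC table, whose hESC level (53.8 FPKM) lies within the 36.1 to 57.3 FPKM of the other tables, was called lower, with a change of -1.72. The row with the highest mean in that table did not pass. The difference between NPC and NCSC was not tested. The deposited locus number of the second row directly follows that of GPC4, as that of GPC3 does in the other 3 tables. That of the row with the highest mean does not. What else separates the rows is not given in the sources used here.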

How the results depend on the processing

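The counts of members called kept within 1.5 times under a q threshold of 0.01, a minimum absolute log2 change of 1, a minimum of 1 FPKM and an adjustment over 1 row per symbol, in all 4 comparisons. With normal p-values from the deposited statistic, 3 members were called in MESO in place of 7 (2 higher and 1 lower). The calls of GPC1, GPC2, GPC6 and SDC1 ended there, beside 7.93% of all loci in place of 14.4%. In NPC the GPC1 call ended, which left 5 members in place of 6, beside 22.5% of all loci in place of 36.8%. In NCSC the count stayed at 3, beside 16.1% of all loci in place of 30.0%. The cause of these shifts was not tested. The second GPC3 row, an alternative chosen after seeing the data, gave 4 members called in NCSC in place of 3, beside 30.0% of all loci. Of the 36 log2 changes, all kept their direction with pseudocounts of 0.1 and 5 and after centring on the median of expressed loci, which was -0.27 in NPC and -0.23 in NCSC. Changes that reversed had not passed: SDC2 in NCSC became 0.041 after quantile normalization, GPC1 and GPC6 in NCSC became -0.024 and -0.023 with the hESC mean of the other 3 tables, and GPC3 in NCSC became -1.72 with its second row. The same hESC mean moved the log2 change of GPC3 in all 4 comparisons. It went from -0.88 to -2.56 in DE and from -1.10 to -2.27 in MESO. In NPC it went from 3.53 to 2.59, and in NCSC from 0.37 to 2.72. The NCSC value sets the highest row against hESC levels near that of the second row. With the second row in the mean the change was -1.43, -1.08 and 3.83 in DE, MESO and NPC. No paired analysis was possible because each table holds 1 combined value per cell type, and for the same reason leaving out single libraries was not run. Depth is unknown, so low levels such as those of GPC5 carry no interval.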

Other observations

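Chondroitin sulfate proteoglycans, the other large class of glycosaminoglycan carriers, are given beside all tested loci, of which 24.9% fell and 12.0% rose in NPC and 19.8% fell and 10.2% rose in NCSC. In NPC 4 of 7 tested fell and 1 rose, and VCAN, versican, a large matrix proteoglycan, fell to 10.4 FPKM, against 71.5 in hESC. In NCSC 4 of 7 fell and none rose, with VCAN at 26.4, against 52.6, although that symbol has 5 rows in the NCSC table. BCAN, brevican, fell in MESO (0.402 against 4.17), NPC (0.214 against 4.48) and NCSC (0.745 against 4.21). DCN, decorin, rose in MESO to 2.07 FPKM and was listed at 0 in hESC.

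Of the other heparan sulfate proteoglycans, NRP1, a semaphorin and VEGF co-receptor, rose in MESO to 52.0 FPKM, against 2.73 in hESC, and SPOCK3, a testican, fell in MESO (0.132 against 6.03), NPC (0.0416 against 7.52) and NCSC (0.0419 against 6.87). Among 8 genes of lysosomal heparan sulfate breakdown, HGSNAT, an acetyltransferase, rose in MESO (8.11 against 1.23), NPC (12.6 against 1.19) and NCSC (6.79 against 1.36). HGSNAT has 3 rows in the NCSC table, and the one with the highest mean is given. In the same list NAGLU fell in NPC (3.24 against 12.4) and IDS rose in MESO (34.7 against 10.9) and NCSC (36.0 against 12.0).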
